A study of Rattus norvegicus with 48 samples.

Results

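Subcutaneous adipose tissue (SAT) of exercised rats was compared between 2 times of the active phase. Rats are nocturnal, so this phase is the night. The libraries were chosen by their labels alone: all 6 of late active phase exercise (LAE) and all 6 of early active phase exercise (EAE), 12 of the 48 libraries of the study. EAE rats belonged to zeitgeber time (ZT, hours after lights on) 13 and LAE rats to ZT 23. All were male adolescent rats, and fat was collected at postnatal day 61, with 24 h between the last exercise session and collection. Each library is a separate rat, per the labels, and no genotype, strain or agent is given. The study also holds sedentary groups (early active phase control, EAC, and late active phase control, LAC) and visceral adipose tissue (VAT), which enter below only where a difference between comparisons was tested or where genes were chosen in them. RNA was taken a day after exercise at the same clock time as the sessions, so phase of collection and phase of exercise moved together and cannot be told apart within these 12 libraries.

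Fat cells store triglyceride after feeding and release fatty acids when other tissues need fuel, and both tasks follow the time of day. Like most tissues, fat runs a circadian clock. Transcriptional activators switch on their own repressors, the repressors then shut the activators off, and the loop drives many output genes, among them genes of lipid storage and release. A clock gene can therefore differ many-fold between opposite ends of the active phase. The deposited table names genes by Ensembl identifier and does not pair these with symbols, so no gene below is given a name or a role. For the same reason the defining markers of fat and of other cell types could not be looked up, and the labelled tissue was not checked against them. In bulk tissue, fewer cells of a type and less RNA per cell cannot be told apart.

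The 12 libraries held between 13163675 and 16983552 estimated counts (median 15516357). Late exercise replicates 4 and 6 stood apart. Their Spearman correlations with the rest had medians of 0.827 and 0.847, against 0.943 to 0.971 for the other 10, while they correlated with each other at 0.984. In each of them 712 genes lay over 4-fold above the median of the 12 libraries, against 10 to 161 in the others, and 618 of these genes were raised in both. Those 618 genes took 22.9% of the counts of replicate 4 and 16.3% of replicate 6. In the other libraries they took between 0.374% and 3.98%, with early exercise replicates 2 (3.98%) and 6 (2.21%) and late exercise replicate 1 (3.49%) at the upper end. The share thus varied over a like range in both groups once the atypical pair was set aside. Early exercise replicate 1 was the next least alike, with counts in 14653 genes against 15411 to 17180 in the other libraries. The main results are given with the pair (12 libraries) and without it (10 libraries).

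**Figure D1:**
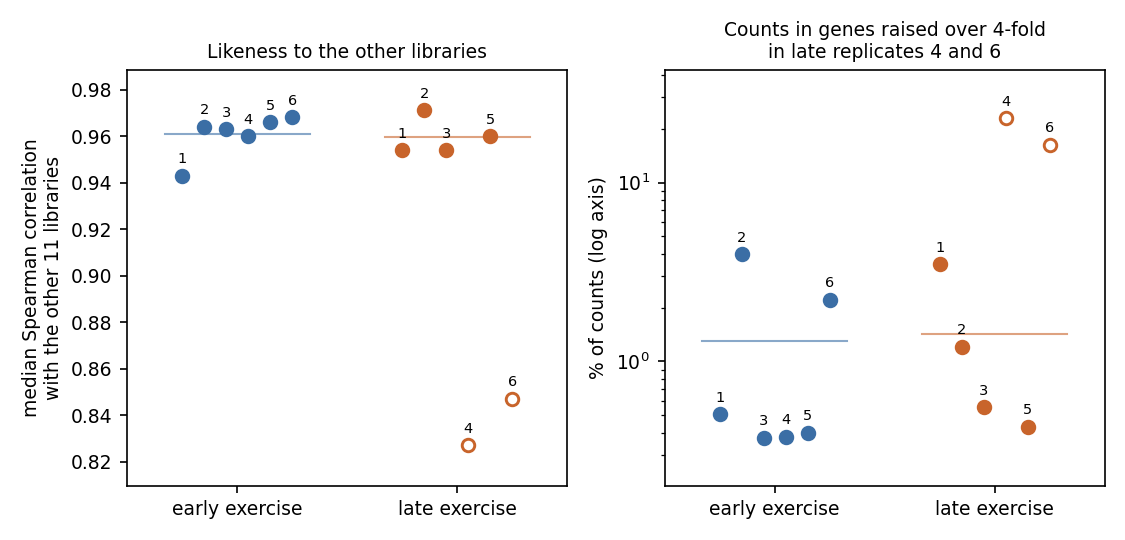
Likeness and composition of the 12 libraries, by group and replicate number. Left, median Spearman correlation of each library with the other 11; right, percentage of counts (log axis) in the 618 genes raised over 4-fold in late exercise replicates 4 and 6. Open circles are these 2 libraries, at 0.827 and 0.847 on the left, and lines are group means without them.

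The genes named here had the largest changes in the 10-library fit among genes called both with and without the pair. Genes at which the pair lacked the change were thus less likely to be among them. ENSRNOG00000013408 was the largest rise by this rule. It lay between 0.965 and 3.11 CPM (the count scaled to library size and composition) in the 6 early libraries, with a median of 1.58 CPM. In the 6 late libraries it lay between 35.4 and 93.3 CPM, with a median of 53.3 CPM. The 2 lowest late values, 38.8 and 35.4 CPM, were those of the atypical pair, and every late library was still above every early one. With 12 libraries the log2 fold change was 5.06 ± 0.336 (SE), a 33.4-fold rise (adjusted p = 4.62e-06, edgeR), and with 10 libraries it was 5.31 ± 0.277, or 39.7-fold (adjusted p = 1.77e-06, edgeR).

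ENSRNOG00000014448 was the next largest rise by the same rule. Its early values ran from 2.15 to 4.74 CPM (median 3.04 CPM) and its late values from 41 to 62.3 CPM (median 54.6 CPM). Here the atypical pair held both the highest late value, 62.3 CPM in replicate 4, and the lowest, 41 CPM in replicate 6. The late group varied little, with a coefficient of variation of 15.1% over 6 libraries against 38.7% for ENSRNOG00000013408. The rise was 16.7-fold with 12 libraries (log2 4.06 ± 0.195 SE, adjusted p = 2.32e-07, edgeR) and 16.9-fold with 10 (log2 4.08 ± 0.186 SE).

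ENSRNOG00000009329 was the largest fall. It stood at 64.7 to 132 CPM in early libraries (median 89.7 CPM) and at 2.61 to 4.26 CPM in late ones (median 3.79 CPM). The pair lay at 3.97 and 4.26 CPM, the 2 highest of the late values but far below any early value. The log2 fold change was -4.64 ± 0.198 (SE) with 12 libraries, a 24.9-fold fall (adjusted p = 7.87e-08, edgeR), and -4.73 ± 0.237 with 10 libraries, a 26.5-fold fall.

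ENSRNOG00000042717 was the weakest expressed of the 4. Early values ran from 6.26 to 13.2 CPM (median 8.55 CPM), on 94 to 190 counts per library. Late values ran from 0.137 to 0.984 CPM (median 0.59 CPM), on 2 to 18 counts, so counting error is largest here. The pair again held the 2 highest late values, 0.908 and 0.984 CPM. Its fall was 14.5-fold with 12 libraries (log2 -3.85 ± 0.401 SE, adjusted p = 3e-04, edgeR) and 19.9-fold with 10 (log2 -4.31 ± 0.422 SE, adjusted p = 0.000291, edgeR). In none of the 4 genes did the late and early ranges touch; being called with and without the pair was a condition for naming them.

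**Figure D2:**
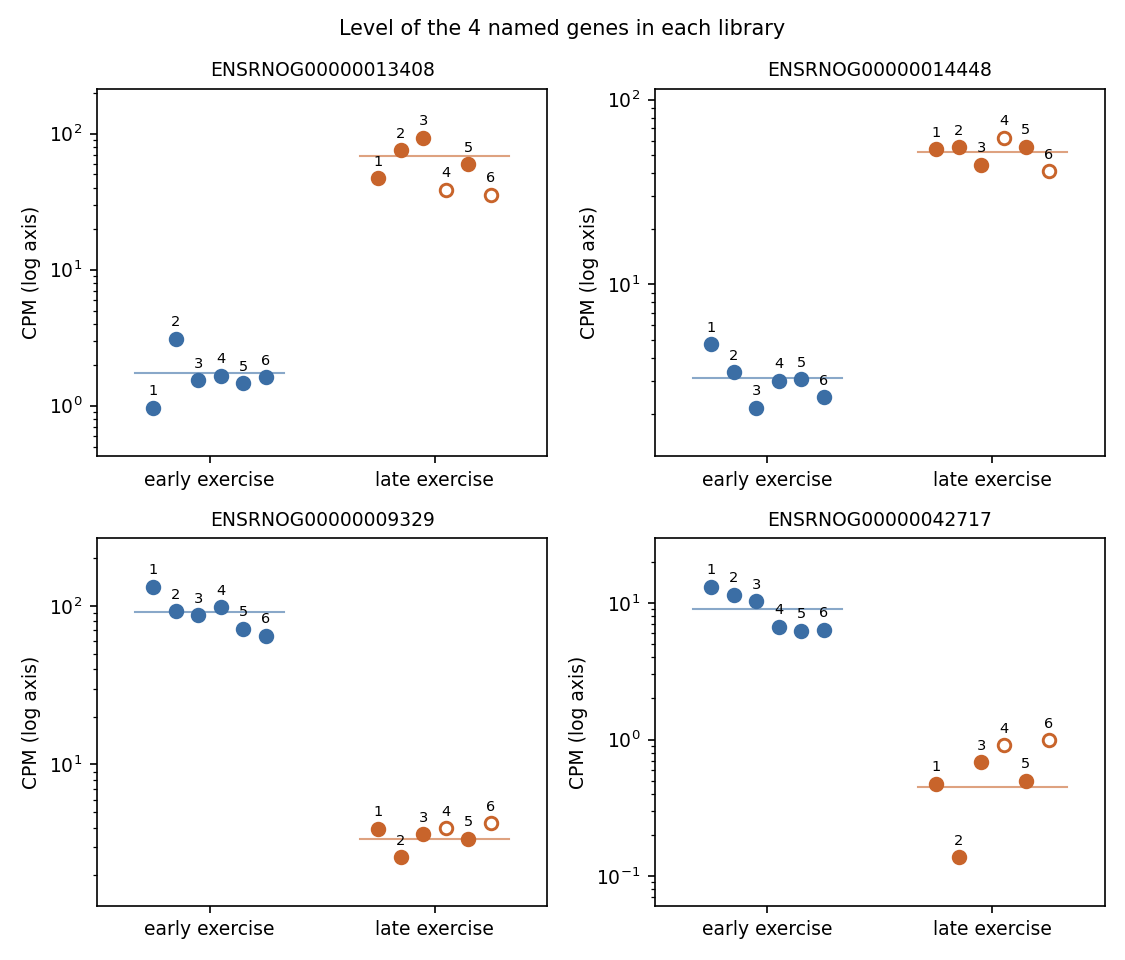
CPM (log axis) in each library, labelled by replicate number, of the 2 largest rises (top) and 2 largest falls (bottom) in the 10-library fit among genes called in both fits. Open circles are late exercise replicates 4 and 6 and lines are group means without them. No late library overlaps an early one, from 0.965 to 3.11 CPM early against 35.4 to 93.3 CPM late in ENSRNOG00000013408.

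With 12 libraries 154 genes rose and 229 fell among 13817 tested (edgeR's quasi-likelihood test with Benjamini-Hochberg adjustment at 0.05), which was 1.11% and 1.66% of those tested and 2.77% in all. With 10 libraries 355 rose and 367 fell among 13965, or 2.54% and 2.63%, in all 5.17%. Which direction held more calls depended on the test: with 12 libraries DESeq2 called 853 higher and 679 lower and a fit of all SAT groups 1413 and 1079, and 1839 of the 3153 genes at an unadjusted p under 0.05 (edgeR) were higher. Leaving out the pair lowered the common biological coefficient of variation from 41.5% to 31%. The median log2 change over all tested genes was 0.0367 with 12 and 0.0104 with 10 libraries. Of the calls, 62 rises and 101 falls with 12 libraries were over 2-fold, and 23 and 28 were over 4-fold. With 10 libraries these were 81 and 90 over 2-fold, and 19 and 25 over 4-fold. Most changes called were thus moderate: with 10 libraries the median log2 change was 0.661 among rises and -0.634 among falls.

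A common set of 307 genes was called in both fits, 112 with higher and 195 with lower late values, and none was called in opposite directions. The fits share 10 libraries, so calls in opposite directions were unlikely beforehand. It made up 80.2% of the 12-library calls and 42.5% of the 10-library calls. In this set 32 rises and 67 falls were over 2-fold in both fits, and 11 and 18 were over 4-fold. The groups did not overlap, the pair included, in 266 of the 307; over all 13817 genes this held for 532, or 3.85%. Without the pair it held for 1124, or 8.13%, but groups separate more easily with fewer libraries, so the 2 shares are not alike. The set leaned towards well expressed genes, 84.4% of it lying over a mean of 10 CPM against 69% of all tested genes. Called shares rose with level in the 10-library fit, from 1.73% of genes at 1 to 5 CPM to 7.91% of genes over 100 CPM, and with 12 libraries from 1.64% to 3.32%.

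The other calls mostly kept their sign but differed in size between the fits. Because the fits share 10 libraries, like signs were largely built in. A total of 415 genes were called only with 10 libraries. Of the 411 of them that the 12-library fit tested, 399 had the same sign there, but their median absolute log2 change was 0.395 with the pair and 0.586 without it. The 76 genes called only with 12 libraries, 42 higher and 34 lower, all had the same sign without the pair, with a median absolute log2 change of 1.02 against 0.781. Membership of either list therefore turned on 2 of 6 late libraries.

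The counts also moved by over 1.5 times with single libraries. The 12-library total of 383 became 171, 133, 156, 131 and 184 without early exercise replicate 2, 3, 4, 5 or 6. It became 677, 239, 254 and 250 without late exercise replicate 2, 3, 4 or 6. The 10-library total of 722 became 1396 without early exercise replicate 1 and 410, 403, 369 and 372 without early exercise replicate 3, 4, 5 or 6. Without late exercise replicate 1 or 3 it became 414 or 355. A set of 104 genes was called in both fits and in every fit that left out 1 library, 41 higher and 63 lower, with a median log2 change of 0.933 and -1.11 in the 10-library fit. All 4 named genes were in it.

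The largest fitted rises were mostly not called. With 12 libraries 323 genes had a fitted rise over 4-fold, of which 23 were called, and in 307 of the 323 both atypical libraries lay above all 10 others. Over all tested genes the pair lay above all others in 25.3%. The pair's own values helped to choose these genes, so its place on top and the loss of size without it describe the list and test nothing. Of the 322 large rises that could be tested without the pair, 24 stayed over 4-fold and 14 were called. Their median log2 change went from 2.53 to 0.431. The largest of these rises at 5 CPM or more stood at 767 and 3880 CPM in the pair and between 1.46 and 38.9 CPM elsewhere. Its log2 change was 7.79 ± 1.77 (SE, adjusted p = 0.039, edgeR) with the pair and 2.28 ± 0.5 (adjusted p = 0.0268, edgeR) without it. Of 43 fitted falls over 4-fold, 28 were called with 12 libraries, 29 stayed over 4-fold without the pair, and 28 were called there.

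**Figure D3:**
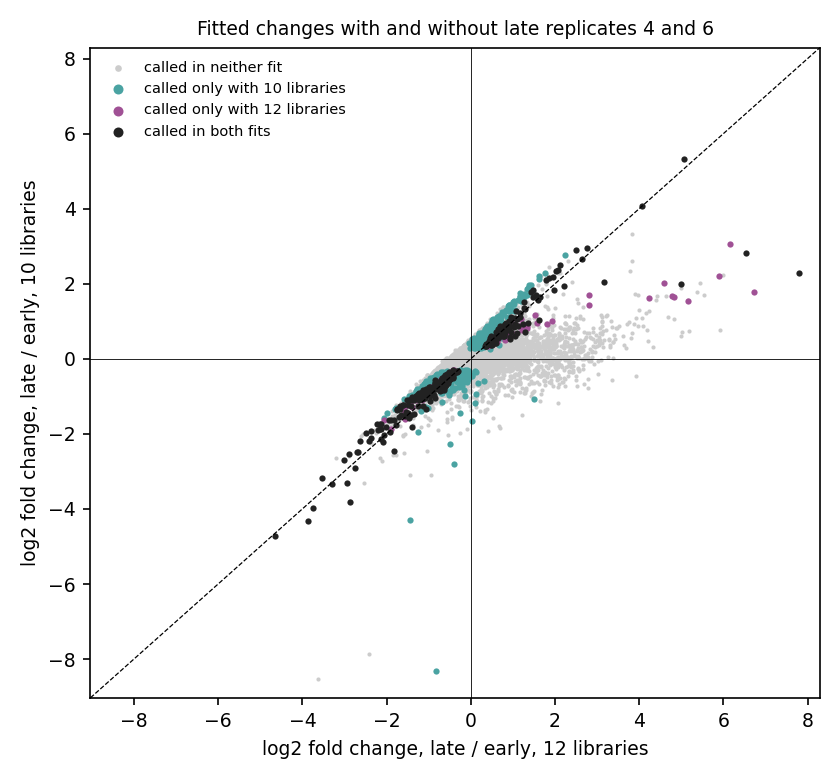
Log2 fold change of late over early exercise with all 12 libraries (horizontal) and with 10 libraries (vertical), 1 point per gene tested in both fits, coloured by where it was called. The dashed line marks equal values. Rises right of the line lose size without the pair, with a median of 2.53 against 0.431 for the rises over 4-fold, while the 307 genes called in both fits lie mostly near the line.

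The 10-library calls did not use the atypical pair, so the pair's own values had no part in calling those genes. The early and late means it is set against come from libraries that did choose them. No early library was left out in the same way, so where one would lie on this scale is not known. Of the 722 genes, 4 were left out because the filter of the 12-library fit, which did use the pair, had dropped them. At all the remaining 718 the mean of late replicates 1, 2, 3 and 5 differed from the early mean by over 0.2 on the log2 scale. There each left-out library was placed on a scale from the early mean (0) to that late mean (1). Among the falls, 66.8% lay nearer to the late mean, or beyond it, in replicate 4 and 71.2% in replicate 6, with median positions of 1.03 and 1.06. Among the rises, 34% and 36.3% did, with median positions of 0.0649 and 0.0834. By their medians the falls were thus at the late level in the pair and the rises near the early level, but the members were split. Of the 365 falls, 291 lay below the early mean in replicate 4 and 301 in replicate 6, and of the 353 rises 181 and 186 lay above it.

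The same reading was made for the other late libraries, each left out of calls made from the remaining 3 with the pair also left out. In replicates 1, 3 and 5 the rises lay nearer the late mean in 82.2%, 87.9% and 71% and the falls in 87.6%, 93.3% and 79.4%. Replicate 2 was lower, at 61.4% of rises and 63.8% of falls. On those calls, falls below the early mean numbered 200 of 202 in replicate 1, 343 of 359 in replicate 2, 173 of 178 in replicate 3 and 202 of 209 in replicate 5. In these 4 libraries the share of rises nearer the late mean was 2.4 to 8.4 percentage points under that of falls. In the pair it was 32.8 and 34.9 points under it. Median positions over all genes placed were 0.858, 0.64, 1.02 and 0.805 in replicates 1, 2, 3 and 5, against 0.516 and 0.595 in replicates 4 and 6. The gene sets differ between these values. On the calls made without replicate 1, replicates 4 and 6 stood at 0.453 and 0.542. Without replicate 3 they stood at 0.558 and 0.604, and without replicate 5 at 0.461 and 0.571. Without replicate 2 they stood at 0.595 and 0.563, close to the 0.64 of replicate 2. These positions describe 6 libraries, and the part in them of the 618 genes raised in the pair was not tested.

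**Figure D4:**
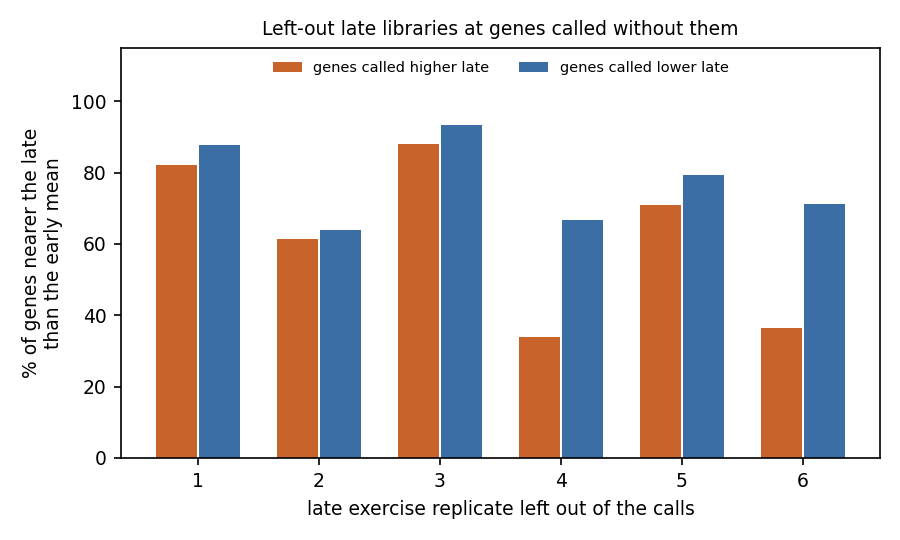
Percentage of genes at which each late exercise library, left out of the calls, lay nearer the late than the early mean, for genes called higher (orange) and lower (blue) at the late phase. Replicates 4 and 6 were placed on calls from the other 4 late libraries, and each other replicate on calls from the remaining 3. Rises stand at 34% and 36.3% in replicates 4 and 6 and at 61.4% or more elsewhere.

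Genes that differed with phase in sedentary rats gave a second reading, since those libraries are not among the 12. In sedentary SAT (late over early control) 6.42% of tested genes were called higher and 5.73% lower. Of those that changed over 2-fold, 106 rises and 98 falls could be followed. In the exercised rats 99 of the rises and 93 of the falls had the same sign with 10 libraries, and 34 and 54 of them were called, where 2.54% and 2.63% of all genes were. With 12 libraries 97 and 82 had the same sign, and 19 and 48 were called, where 1.11% and 1.66% of all genes were. For the falls, the late libraries had like medians: the median log2 difference from the early exercise mean was between -1.57 and -1.2, and replicates 4 and 6 stood at -1.57 and -1.54. Fewer of the falls were low in the pair, however, 75 of 98 in each against 84, 92, 94 and 95 in replicates 1, 2, 3 and 5. For the rises, late replicates 1, 2, 3 and 5 stood at 0.711, 0.897, 0.821 and 1.41, whereas replicates 4 and 6 stood at -0.105 and 0.0423, among the early libraries at -0.255 to 0.363.

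Among these genes, the strongest sedentary changes placed all late libraries apart from all early ones by their medians. At the 13 rises over 4-fold the pair stood at 1.81 and 1.75 and the other late libraries at 2.3 to 2.91, against -0.191 to 0.143 in the early group. At the 22 falls over 4-fold late libraries lay between -3 and -1.92, with the pair at -2.24 and -2.61. The pair was thus below every other late library at these strong rises, yet far above the early group. At the remaining 93 rises, of 2-fold to 4-fold, the pair stood at -0.196 and -0.149, the other late libraries at 0.632 to 1.28 and the early ones at -0.313 to 0.371. At the remaining 76 falls it stood at -1.22 and -1.35, within the -1.39 to -1.03 of the other late libraries. Set against the other 4 late libraries, the pair was lower at 83 of the 106 rises, with a median log2 difference of -0.904. Over all tested genes it was lower at 47.3%, with a median of 0.0498, and at the 98 falls the median was -0.0733, with quartiles of -1.18 and 1.36, so single falls lay well to either side. What the 618 raised genes had to do with this was not tested.

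**Figure D5:**
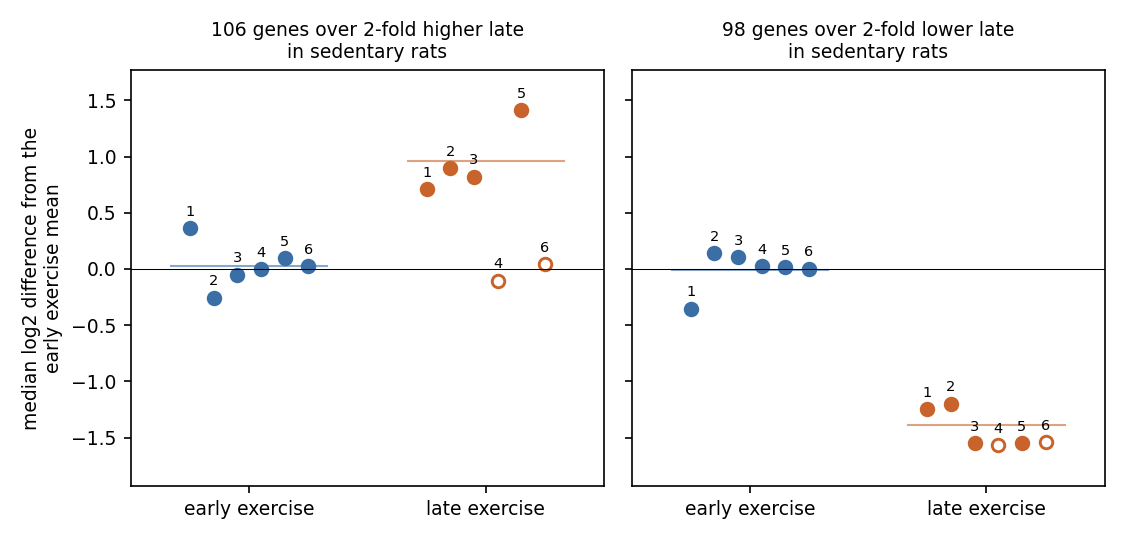
Median log2 difference of each exercised SAT library from the early exercise mean, over 106 genes called over 2-fold higher (left) and 98 called over 2-fold lower (right) at the late phase in sedentary rats. Open circles are late exercise replicates 4 and 6 and lines are group means without them. On the left these 2 libraries lie at -0.105 and 0.0423, among the early ones; on the right all late libraries lie at -1.2 or below.

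Whether the phase difference of exercised rats was itself different from that of sedentary rats was tested as an interaction over the SAT groups. With 24 libraries 0 of 14372 genes were called (edgeR's quasi-likelihood test; 2411 at an unadjusted p under 0.05; 184 called by DESeq2 and 1 by limma voom). Without the pair 4 of 14505 were called by edgeR, or 0.0276%, and no other tool was run there. The signed late-over-early log2 change was higher in exercised rats for 3 and lower for 1. In all 4 the group means moved in opposite directions with phase in sedentary and in exercised rats. The test of that difference chose these genes, so it does not by itself show a reversal. In 1 of them the sedentary move was within the SD, from 73.2 ± 9.3 CPM in EAC to 67.1 ± 10.5 CPM in LAC. In the other 3 it was larger than the SD of either group. The gene with the largest difference of the 4 had 229 ± 91.3 CPM in EAC and 96.9 ± 29.4 CPM in LAC (SD, n = 6). It had 193 ± 55.7 CPM in EAE (n = 6) and 373 ± 128 CPM in LAE (n = 4). Its late level was thus below the early one without exercise and above it with exercise (adjusted p = 0.0497 with 22 libraries and 0.222 with 24, edgeR). None of the named genes passed this test. Their difference was 0.382 ± 0.387 (log2, SE) for ENSRNOG00000013408, 0.0887 ± 0.313 for ENSRNOG00000014448, -0.436 ± 0.378 for ENSRNOG00000009329 and 0.58 ± 0.585 for ENSRNOG00000042717 without the pair. With the pair these were 0.141 ± 0.414, 0.0766 ± 0.306, -0.348 ± 0.336 and 1.04 ± 0.553. Without the pair the approximate 95% intervals ran from -0.376 to 1.14, from -0.524 to 0.702, from -1.18 to 0.305 and from -0.567 to 1.73, so differences of over 1 log2 unit are within reach for all of them but ENSRNOG00000014448.

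In separate fits of 12 libraries each, 1671 genes were called for phase in sedentary SAT (12.1% of 13763) and 2262 in exercised VAT (16.8% of 13453; 7.97% higher and 8.85% lower). Sedentary SAT shares no rat with the exercised groups, whereas the VAT libraries come from the same rats. Of the 722 calls with 10 libraries, 375 were called in the same direction in sedentary SAT and 1 in the opposite one. The 375 were 51.9% of these calls and 22.4% of the sedentary calls. In exercised VAT 473 were called in the same direction, 65.5% of these calls and 20.9% of the VAT calls. Of the 383 calls with 12 libraries, 215 (56.1%) were called in the same direction in sedentary SAT and 247 (64.5%) in exercised VAT, which was 12.9% and 10.9% of the calls there. Of the 307 genes called in both SAT fits, 49 of 112 rises (43.8%) and 108 of 195 falls (55.4%) were called in the same direction in both other comparisons. Of these, 15 and 34 were over 2-fold throughout. The share of all tested genes called in both other comparisons is not given here. In sedentary SAT alone 6.42% of tested genes were called higher and 5.73% lower, and in exercised VAT alone 7.97% and 8.85%. Of the 104 genes called in both SAT fits and in every fit that left out 1 library, 87 were also called in sedentary SAT and 89 in exercised VAT.

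The difference in phase effect between the depots of exercised rats was fitted with the rat as a block. SAT and VAT libraries of the same group and replicate number were taken as 1 rat. With 24 libraries this fit called 0 of 14239 genes (edgeR, lowest adjusted p 0.251, 1982 genes at an unadjusted p under 0.05). Leaving out the block also gave 0 calls (edgeR, 2416 genes at an unadjusted p under 0.05). Without the rats of the pair the fit with the block called 0 of 14329 (edgeR, lowest adjusted p 0.139, 1194 genes at an unadjusted p under 0.05). No other tool was run on this test. For ENSRNOG00000042717 the SAT minus VAT difference was 0.897 ± 0.519 (log2, SE) with the pair and 0.219 ± 0.415 without it. The fall in its VAT fit was 28.1-fold, against 14.5-fold and 19.9-fold in SAT with and without the pair. For the other 3 named genes the difference lay between -0.251 and 0.336 in either fit. A count of 0 in these tests does not show that phase acted alike in both depots.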

How the data were processed

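PolyA-selected RNA was sequenced as 50-nt single-end reads, 21 M on average, from RNA with an integrity number over 9, per the labels' protocols. The table the authors deposited has 1 row for each of 23481 Ensembl identifiers and 1 column of estimated counts, all whole numbers, for each of 48 libraries. The submitters' processing notes name Salmon 1.4.0 and rn6. Which annotation was used, and how transcripts were combined, is not given in the sources used here. Columns were matched to samples by library name, and 0 were left over. Of the identifiers 0 matched the RefSeq gene table, so 42 gene lists, 20 of them cell type markers, were not analysed here, and the rule for named genes was reduced to the 2 largest rises and 2 largest falls in the 10-library fit among genes called in both fits at a mean of 5 CPM or more in a group. Reads of overlapping, antisense or near-identical genes cannot be told apart here.

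The test was that of edgeR 4.0.16 under R 4.3.3 (TMM, filterByExpr, quasi-likelihood F test, Benjamini-Hochberg at 0.05), fitting only the groups compared. The filter kept 99.76% (12 libraries) and 99.9% (10) of counts. Standard errors are the log2 change over the square root of F, and approximate intervals are 1.96 of them. CPM uses the 12-library TMM sizes; log2 CPM has a prior count of 2. The 0-count floor (3 counts) is 0.228 CPM in the smallest library, and covers counting error only. All 30 within-group pairs of libraries differed beyond sampling noise (chi-square per degree of freedom 32.8 to 553). The fits were tested on simulated data. Alternatives were DESeq2 size factors, no filter, DESeq2 1.42.0, limma 3.58.1 voom with quality weights, robust edgeR, a fit of all SAT groups, the replicate number as a block, and each library left out in turn; a composition covariate and the readings of left-out libraries were added after seeing the data. The comparison, the atypical pair and the lists were chosen with earlier results of these data known.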

Additional observations from a re-analysis of the deposited data

Results flagged for a closer look

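Groups of 6 or, without the pair, 4 libraries were tested for a library far from the rest of its group. The 33 tests gave 6 hits, where chance gives about 1 in 20, and the measures are not independent. Each test sets the most extreme value against the next one, so 2 libraries with like values can hide each other. The atypical pair gave none of the hits. Early exercise replicate 1 accounted for 3: the fewest detected genes (14653), the lowest median rank correlation of its group (0.943) and the lowest position at the 98 sedentary falls (-0.355 on the log2 scale). Without the pair, late exercise replicate 2 had the most detected genes of the 4 late libraries (16323). ENSRNOG00000013408 was highest among early libraries in replicate 2 (3.11 CPM), and ENSRNOG00000014448 was lowest among the 4 late libraries in replicate 3 (44.4 CPM). Neither value came near the other group.

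Without the pair, 4 genes differed in phase effect between exercised and sedentary rats in SAT, each at an adjusted p of 0.0497 (edgeR). This value, shared through the adjustment, lies just under the 0.05 threshold. DESeq2 and limma voom were not run on this test without the pair. Their differences, exercised minus sedentary, were 0.622, -0.562, 0.91 and 2.19 on the log2 scale, with standard errors of 0.11, 0.0988, 0.15 and 0.39. With the pair their adjusted p-values were 0.324, 0.114, 0.213 and 0.222 (edgeR).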

How the results depend on the processing

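The 4 named genes kept their direction and were called in all 21 alternatives of the 12-library fit and all 18 of the 10-library fit; the highest adjusted p was 0.0252 (edgeR, for ENSRNOG00000042717). Counts did move. With 12 libraries, 154 higher and 229 lower became 84 higher without a filter, 853 and 679 with DESeq2, 484 and 617 with limma voom, 1413 and 1079 in the fit of all SAT groups, 355 and 367 without both atypical libraries, and 98 higher with the share of counts in the 618 raised genes as a covariate. Leaving out 1 library gave 44 to 344 higher and 84 to 333 lower. With 10 libraries, 355 and 367 became 697 and 758 with DESeq2 and 874 and 889 in the fit of all SAT groups, and leaving out 1 library gave 175 to 708 higher and 180 to 688 lower. Replicate numbers of the 2 groups name different rats, and deviations of same-numbered libraries correlated between -0.36 and 0.395, best with their own number for 1 of 6. With the replicate number as a block the counts were 20 and 38 with 12 libraries and 37 and 29 with 10. For the exercised minus sedentary test, 0 calls became 4 without the pair, 184 with DESeq2 and 1 with limma voom. The causes were not tested. DESeq2 size factors and robust edgeR left counts within 1.5 times. Depth limits genes near the floor, such as ENSRNOG00000042717 at the late phase.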
